A study of Mus musculus with 15 samples.

Results

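This account sets 3 arrays of B cells that lack ELL2 by conditional knockout (ELL2 cko, genotype ELL2 -/- cko) against 4 arrays of wild-type (WT) B cells, all cultured with lipopolysaccharide (LPS) for 72 hours. These are 7 of the 15 arrays of the series, and all 31366 genes with a value were compared. A gene is described by the range rule when all 3 ELL2 cko arrays lay outside the range of the 4 WT arrays. By this rule 2400 genes lay below the WT range, 1955 lay above it, and 1650 more had ELL2 cko arrays on both sides of it, 6005 genes in all. Each array holds RNA of splenic B cells that were separated on magnetic columns from each mouse, of the C57BL/6 strain. The Cre driver, the deleted exons and the age of the mice are not given in the sources used here. The other 8 arrays, 4 of ELL2 cko and 4 of WT cells processed without LPS or culture, serve here for the spread of each gene and for its level before culture. Among these, ELL2 cko replicates 1 and 2 had high markers of T cells and of other cells, with values given among the flagged results.

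ELL2 belongs to the super elongation complex, which helps RNA polymerase II move through a gene. It is known in antibody-secreting cells for favouring the secreted over the membrane form of immunoglobulin heavy chain RNA, through the choice of an early polyadenylation site. LPS is a component of the outer membrane of bacteria that binds Toll-like receptor 4 and drives mouse B cells to divide and to become antibody-secreting cells. In this change Irf4, Blimp-1 (Prdm1) and Xbp1 act as transcription factors, the endoplasmic reticulum (ER) and its folding machinery expand, and factors of the mature B cell such as Pax5 are lost.

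Values are log2 levels on the transformed scale of the array software, and a gene's value is the median of its exon regions. The median gene stood at 5.13 in ELL2 cko and 5.10 in WT arrays, so a gene near this level was not shown to be expressed. Pearson's r between any 2 of the 7 arrays lay between 0.947 and 0.981 over all rows, and no pair was a duplicate. Of 20 T cell markers 5, 17 and 16 lay above the median gene in ELL2 cko replicates 1 to 3, against 5 to 7 in WT arrays. Their summed levels were 100.3, 131.8 and 135.6 in ELL2 cko and 98.5 to 100.8 in WT. Cd3d, a chain of the T cell receptor complex, had 4.67, 8.06 and 7.89 in ELL2 cko arrays, against 4.88 to 4.97 in WT. The 19 monocyte and macrophage markers summed to 106.4, 119.6 and 117.9 in ELL2 cko and 99.2 to 103.1 in WT, and Lyz2, a lysozyme of these cells, had 4.95, 10.56 and 10.56 against 4.40 to 5.03. Replicates 2 and 3 of ELL2 cko thus had higher levels of these markers than replicate 1 and the WT arrays. Their part in the results was not tested, and values for replicate 1 alone are given beside several of them. Neutrophil markers (71.7, 78.5 and 77.3 against 68.7 to 70.9, 16 genes) and NK cell markers (58.1, 63.5 and 63.8 against 56.8 to 58.9, 13 genes) were slightly higher in the same arrays. The 12 dendritic cell markers summed to 74.9, 77.3 and 76.0 against 71.6 to 75.2, and the 8 erythroid and platelet markers to 37.6 to 39.4 against 37.6 to 39.0. All 9 B cell markers lay above the median gene in every array. Their mean was 13.58, 13.64 and 13.72 in ELL2 cko, while WT replicates 1 to 4 had 10.99, 13.34, 11.40 and 13.22, so WT replicates 1 and 3 stood apart from 2 and 4. By Xist, expressed from the inactive X chromosome of females, all 3 ELL2 cko arrays (16.51 to 16.54) and WT replicates 1 and 4 (16.13 and 15.89) came from females, and WT replicates 2 and 3 (4.80 and 5.38) from males. Males were thus present in the WT group only, no fit included sex, and its part in the results was not tested.

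After LPS, most members of the lists of antibody-secreting cells and of the unfolded protein response fell in ELL2 cko relative to WT cells, and few members of the mature B cell lists were called. Of the 31366 genes 1462 were called (4.66%) by limma at a Benjamini-Hochberg adjusted p under 0.05. Of these 1034 were lower in ELL2 cko (3.3%) and 428 higher (1.36%), and the median difference over all genes was 0.02. Genes with every ELL2 cko array below WT made up 7.65% of all genes, and those with every array above made up 6.23%. Of the called genes 998 lay wholly below the WT arrays, 390 wholly above, and 74 overlapped. The lower genes were 70.7% of the calls, or 56.4% of 1712 calls after a further quantile normalization. Changes of at least 1 log2 unit were called for 837 lower and 287 higher genes. The p-values reflect how much arrays of 1 group differ, each holding cells of a mouse. In bulk RNA, fewer cells of a type and less RNA per cell cannot be told apart.

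The number of calls depended on single arrays. It was 556 without ELL2 cko replicate 2, 590 without ELL2 cko replicate 3, 863 without WT replicate 1 and 724 without WT replicate 3. Of these 484, 527, 683 and 591 were lower genes and 72, 63, 180 and 133 higher ones. Higher genes numbered 830 without ELL2 cko replicate 1 and 745 without WT replicate 2. With ELL2 cko replicate 1 as the only knockout array, the lone array being assumed to vary like the other groups, 20 genes were called lower and 0 higher by limma (1729 and 1073 at an unadjusted p under 0.05). Of 149 calls among listed genes 4 were made with that array alone. Junction rows, whose probes lie across exon borders and did not enter gene values, were present for 904 of the lower genes, and 541 of these (59.8%) also lay below WT in every array by junctions, against 7.17% of all 22280 genes with junctions. Of 353 higher genes with junction rows 151 (42.8%) lay above WT, against 4.9% of all.

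**Figure D1:**
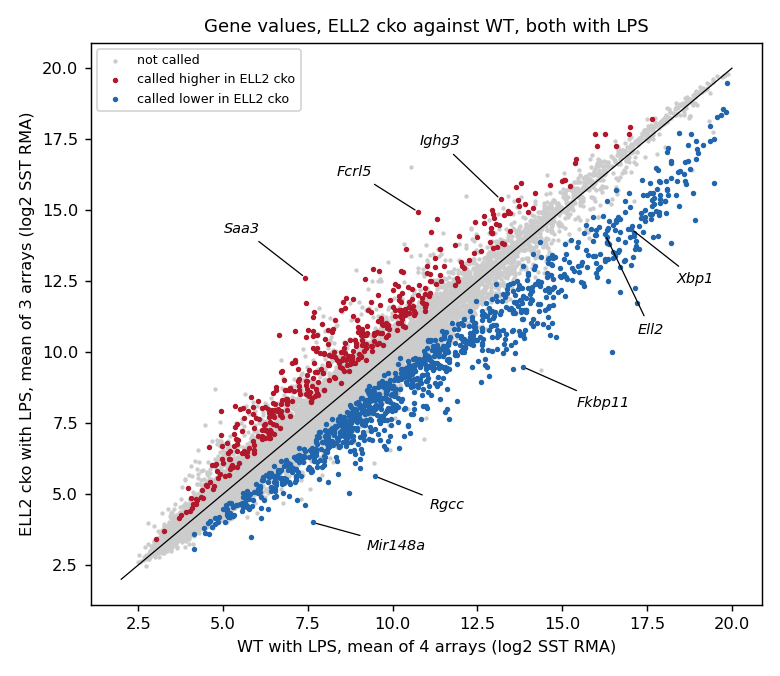
Mean log2 level of each gene in ELL2 cko with LPS (vertical axis, 3 arrays) against WT with LPS (horizontal axis, 4 arrays), in log2 units; blue points are the 1034 genes called lower in ELL2 cko, red points the 428 called higher, grey points the others, and the line marks equality. Xbp1 and Ell2 are labelled among the blue points at high levels, and Saa3, with a difference of 5.19, stands far above the line.

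Ell2 itself was lower in the knockout. Its values were 14.15, 14.16 and 14.14 in ELL2 cko, against 16.86, 15.90, 16.56 and 15.73 in WT. The 3 knockout arrays were almost equal and all lay below the lowest WT array, by a difference of -2.11 ± 0.29 (log2 ± SE, limma adjusted p = 9.03e-04, n = 3 and 4). Of its 15 exon regions 14 lay below WT in every array, and its level in ELL2 cko stood far above the median gene. Without LPS the values were 10.38, 9.78, 10.75 and 11.17 in ELL2 cko and 10.87 to 11.10 in WT.

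Of 33 measured genes of the super elongation complex and other elongation factors, 4 fell (12.1%), none rose and 6 lay wholly below WT. Over all genes 3.3% fell, 1.36% rose and 7.65% lay wholly below WT. The list's median difference was -0.02, beside 0.02 over all genes. The count of 4 was 2 without ELL2 cko replicate 2 or WT replicate 3 and 1 without ELL2 cko replicate 3 or WT replicate 1. Apart from Ell2 the called members were Eaf2, Supt5 and Nelfa. Eaf2, an ELL-associated factor, had 10.59, 11.73 and 11.97 in ELL2 cko and 15.18, 12.36, 14.72 and 13.47 in WT (difference -2.50 ± 0.59, adjusted p = 0.0249). The WT arrays of Eaf2 spread over more than their distance from the knockout, and its call was lost without any 1 of the 3 ELL2 cko arrays or WT replicate 1 or 3 (adjusted p up to 0.089). Supt5, the large subunit of the pausing and elongation factor DSIF, had 11.60, 10.51 and 10.89 against 12.28 to 12.47 in WT (-1.39 ± 0.32, adjusted p = 0.0218). Its call was lost without ELL2 cko replicate 2 or 3 or WT replicate 1 or 3 (adjusted p up to 0.136). Nelfa, a subunit of the pausing factor NELF, fell by 1.16. Of the relatives of Ell2, Ell differed by -0.70 and Ell3 by 0.03, and Supt4a, the partner of Supt5 in DSIF, lay below the median gene in all arrays. None of the 23 cleavage and polyadenylation genes was called by limma (1 lower and 1 higher at an unadjusted p under 0.05), and their median difference was 0.01. Cstf2, the subunit of the cleavage stimulation factor that binds RNA next to the cleavage site, differed by 0.03. Sympk, a scaffold of the complex, was the 1 member wholly below WT (-0.32 ± 0.19, adjusted p = 0.457).

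The transcription factors that drive antibody-secreting cells fell. Xbp1, which switches on genes of the ER and of the unfolded protein response, had 14.48, 14.13 and 14.41 in ELL2 cko and 17.58, 16.30, 17.31 and 16.92 in WT. All knockout arrays lay below all WT arrays, at 14 of its 15 exon regions too, and the difference was -2.68 ± 0.27 (limma adjusted p = 1.35e-04). Prdm1 had 11.67, 10.41 and 10.70 in ELL2 cko, against 13.12, 12.65, 13.63 and 12.18 in WT. The nearest arrays were knockout replicate 1 and WT replicate 4, and the difference was -1.97 ± 0.34 (adjusted p = 0.00422). Irf4 had 13.70, 14.03 and 13.91 in ELL2 cko and 16.24, 14.76, 15.95 and 14.87 in WT (-1.58 ± 0.33, adjusted p = 0.0129). Its groups did not overlap, and the call was lost without ELL2 cko replicate 3 (adjusted p = 0.0567). Without LPS the WT means were 10.33 for Xbp1, 6.10 for Prdm1 and 11.61 for Irf4, so all 3 factors stood above these levels in the cultured knockout cells. Pax5, which maintains B cell identity and is repressed by Blimp-1, had 13.50, 12.57 and 12.84 in ELL2 cko and 8.09, 12.68, 10.50 and 11.79 in WT. Its groups overlapped through WT replicate 2, and the difference of 2.21 ± 0.79 did not pass the test (adjusted p = 0.147).

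Of 29 measured factors and markers of antibody-secreting cells 15 fell and none rose, and 19 lay wholly below WT, against 3.3% called lower and 7.65% below over all genes. The median difference was -1.58. Fkbp11, a folding factor of the ER, differed most, with 9.53, 9.43 and 9.49 in ELL2 cko and 15.34, 12.37, 14.74 and 12.91 in WT (-4.36 ± 0.53, adjusted p = 3.97e-04). All knockout arrays lay below all WT arrays, which spread over a wider range than the knockout. Txndc5, a disulfide isomerase of the ER, had 12.59, 12.01 and 12.41 against 16.35, 14.65, 16.38 and 15.19 in WT (-3.30 ± 0.34). Cd93, a surface protein that long-lived plasma cells need, had 8.03, 6.26 and 6.36 against 9.5 to 10.36 in WT (-2.97 ± 0.35). These 3 genes kept their calls with any 1 array left out, but the junction rows of Cd93 differed by -1.28 and were not called (limma adjusted p = 0.123). Sdc1, which encodes the plasma cell marker CD138, fell by 2.03, Slamf7 by 2.31, the integrin subunit gene Itga4 by 2.45 and Tnfrsf13b, the receptor TACI, by 1.33. Tnfrsf17, the receptor BCMA, lay wholly below WT (5.69 to 6.35 against 6.38 to 6.76) without passing the test (-0.65 ± 0.22, adjusted p = 0.13). Ly6k went against the list, with 6.96, 11.52 and 11.91 in ELL2 cko and 8.35 to 9.13 in WT, high in the 2 arrays with T cell markers and low in replicate 1. With replicate 1 alone the list's median was -1.56, and with the 7 LPS arrays alone 10 of its genes were called lower.

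Immunoglobulin genes were measured by constant regions and by variable segments. Of the 12 constant region and partner genes 3 fell (Iglc2, Iglc3 and Mzb1), 1 rose (Ighg3), 4 lay wholly below and 3 wholly above WT. Of all genes 3.3% fell, 1.36% rose, 7.65% lay wholly below and 6.23% wholly above WT. The 3 falls numbered 1 without ELL2 cko replicate 2 or 3 or WT replicate 1 or 3. Ighm, the heavy chain of IgM, had 19.80, 19.64 and 19.85 in ELL2 cko and 19.79 to 19.85 in WT (-0.04 ± 0.11, adjusted p = 0.917). All arrays lay close to the highest value of the table, 19.93, where the scale leaves no room to measure a rise. A fall can be flattened there too, so the difference of -0.04 does not show that the level was kept. The WT mean without LPS was 19.63. By junction rows the difference was 0.70 (limma adjusted p = 0.0469). Ighg3, the heavy chain of IgG3, a class that LPS alone induces, had 15.26, 15.36 and 15.52 in ELL2 cko, against 11.89, 14.26, 12.26 and 14.31 in WT. All 7 of its exon regions lay above WT in every array, and the gene rose by 2.2 ± 0.53 (adjusted p = 0.0283). This call was lost without ELL2 cko replicate 2 or 3 or WT replicate 1 or 3 (adjusted p up to 0.117). Ighg2c, the heavy chain of IgG2c, also lay wholly above WT, with 13.19, 12.18 and 12.17 against 6.71, 11.52, 8.63 and 11.39, but the spread of the WT arrays left it uncalled (2.95 ± 1.13, adjusted p = 0.183). Ighg2b, the other class induced by LPS alone, overlapped, with 18.17, 15.33 and 15.46 against 14.65, 17.97, 15.22 and 16.31 (0.29 ± 0.75). Ighd, the heavy chain of IgD of mature B cells, had 10.11, 10.44 and 9.76 against 5.88, 9.95, 5.82 and 7.85 (2.73 ± 0.93, adjusted p = 0.126). Igha, Ighe and Ighg1 stayed at or below 8.12 in all 7 arrays and were not called.

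Light chain genes were lower. Iglc2, a lambda constant region, had 17.63, 17.74 and 17.72 in ELL2 cko and 18.58 to 19.03 in WT, and its 4 exon regions all lay below WT (-1.10 ± 0.15, adjusted p = 8.74e-04). Iglc3 fell by 0.73 ± 0.16 (adjusted p = 0.0198), a call lost without ELL2 cko replicate 2 or 3 or WT replicate 1 or 3 (adjusted p up to 0.079). The lambda constant regions are near-identical copies, so their rows may share RNA. Rows annotated to Igk, the kappa locus, gave 16.41, 15.28 and 15.11 in ELL2 cko and 18.73 to 19.05 in WT (-3.26 ± 0.43, adjusted p = 6.14e-04). Jchain, which joins IgM into polymers, had 17.87, 15.75 and 15.57 against 19.00, 18.78, 18.95 and 18.55. All 9 of its exon regions lay below WT, but replicate 1 stood above the other knockout arrays and the difference of -2.42 ± 0.95 was not called (adjusted p = 0.193). Mzb1, an ER cochaperone of B cells that assists IgM assembly, fell by 1.85.

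Many of the lower genes were immunoglobulin variable segments, a group looked at after its values were seen. Of 222 segments with a value 201 fell (90.5%), 1 rose and 208 lay wholly below WT, against 3.3%, 1.36% and 7.65% of all genes. The family made up 19.4% of the 1034 lower genes, and 833 lower genes were not of it. Heavy chain segments fell in 109 of 120 cases, kappa segments in 89 of 99 and lambda segments in 3 of 3. Their median differences were -2.37, -2.58 and -1.52. The mean over all segments was 13.34, 12.57 and 12.61 in ELL2 cko and 15.69, 14.91, 15.39 and 15.00 in WT, and without LPS it was 10.37 to 10.62 in ELL2 cko and 10.15 to 11.00 in WT. The knockout arrays thus stood between cultured WT cells and cells without LPS. Ighv14-2 was the segment that rose (1.41, limma adjusted p = 0.0282), but no segment lay wholly above WT. None was called higher with the 7 LPS arrays alone, or without ELL2 cko replicate 2 or 3 or WT replicate 1, 3 or 4. With any 1 array left out between 170 and 200 segments were called lower, and 15 of the 20 genes called with replicate 1 alone were segments. By junction rows 119 of 157 segments fell and none rose. Only 23 segments have 3 or more exon regions, and segments of a family are close in sequence, so the value of 1 segment may include RNA of others.

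**Figure D2:**
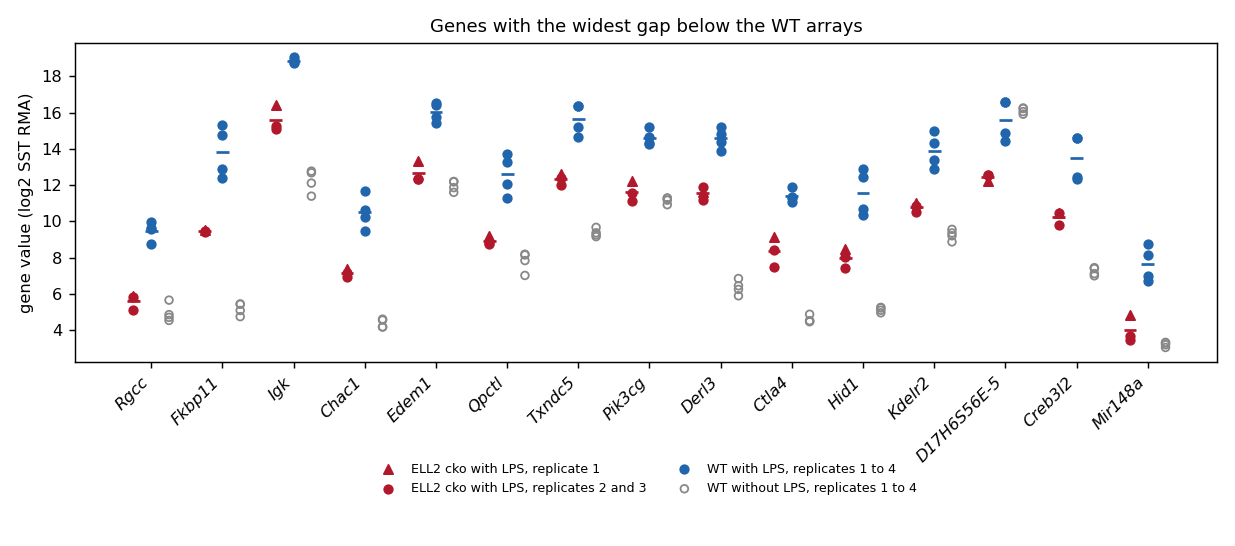
Log2 level by array of the 15 called genes with the widest gap below the WT arrays (predicted genes, pseudogenes and receptor segments left out), with ELL2 cko with LPS in red (triangle, replicate 1; circles, replicates 2 and 3), WT with LPS in blue, WT without LPS as open grey circles and bars at the means. No red point reaches a blue one for any of the 15 genes, and in Fkbp11 the knockout arrays sit between 9.43 and 9.53, against 12.37 to 15.34 in WT.

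The unfolded protein response, by which the load of proteins in the ER sets the amount of its chaperones and degradation factors, is read here by its sensors and targets. Of 45 measured genes of this list 27 fell, none rose and 31 lay wholly below WT, with a median difference of -1.68. The shares of all genes were 3.3% called lower and 7.65% wholly below WT. Among the sensors Ern1, which encodes IRE1, the enzyme that splices Xbp1 RNA, fell by 2.73, Atf6b by 2.31 and Eif2ak3, which encodes PERK, by 0.89. Atf6 had 14.71, 14.05 and 13.74 in ELL2 cko and 15.45, 15.47, 15.49 and 14.39 in WT, overlapping through WT replicate 4 (-1.03 ± 0.34, adjusted p = 0.108). Edem1, which takes misfolded glycoproteins out of the folding cycle, had 13.32, 12.33 and 12.33 against 16.42, 15.40, 16.51 and 15.74. It lay wholly below WT at 13 of 15 exon regions (-3.36 ± 0.30, adjusted p = 5.6e-05) and was called with replicate 1 alone too (-2.70, adjusted p = 0.0389). Edem3, of the same family, had 12.48, 10.24 and 11.01 against 13.88 to 15.50 (-3.34 ± 0.51), and Derl3, a channel component of ER-associated degradation, 11.62, 11.16 and 11.92 against 13.88 to 15.18 (-3.00 ± 0.37). Sel1l, the adaptor of the main ubiquitin ligase of the ER, fell by 3.28, the large chaperone Hyou1 fell by 2.88 and the central chaperone Hspa5, known as BiP, fell by 1.97. Herpud1, a membrane protein of the same degradation complex, fell by 1.98. Chac1, a glutathione-degrading enzyme and target of Atf4, had 7.36, 6.92 and 7.16 against 9.45 to 11.69 (-3.35 ± 0.38), but its junction rows differed by only -0.49 (adjusted p = 0.558). Of other targets of the PERK branch Ddit3 (CHOP, -0.35), Trib3 (0.15) and Asns (-0.29) were not called, and Trib3 lay close to the median gene. The count of 27 was 16 with the 7 LPS arrays alone, 16 without ELL2 cko replicate 2, 17 without ELL2 cko replicate 3 and 18 without WT replicate 3, while the median stayed between -1.95 and -1.57 with any 1 array left out and was -1.58 with replicate 1 alone.

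Promoters of 4 fallen genes are shown because they hold the 3 response elements that factors of this pathway are known to bind, the ER stress elements ERSE and ERSE-II and the unfolded protein response element UPRE. They come from RefSeq on GRCm38.p6 and run 5′ to 3′ on the plus strand over 300 bases around the gene's start, most of them before it. Capitals mark the element, ERSE in Derl3 (chr10:75893148-75893447), ERSE-II in Krtcap2 (chr3:89246223-89246522) and UPRE in Sec24d (chr3:123267246-123267545) and Kdelr3 (chr15:79516158-79516457).
Derl3: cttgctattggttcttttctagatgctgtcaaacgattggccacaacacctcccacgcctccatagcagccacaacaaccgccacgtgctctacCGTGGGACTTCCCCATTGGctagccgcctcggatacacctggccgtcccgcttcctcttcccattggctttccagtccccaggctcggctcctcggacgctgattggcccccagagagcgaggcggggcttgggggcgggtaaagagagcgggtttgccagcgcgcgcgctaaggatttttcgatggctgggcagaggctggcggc
Krtcap2: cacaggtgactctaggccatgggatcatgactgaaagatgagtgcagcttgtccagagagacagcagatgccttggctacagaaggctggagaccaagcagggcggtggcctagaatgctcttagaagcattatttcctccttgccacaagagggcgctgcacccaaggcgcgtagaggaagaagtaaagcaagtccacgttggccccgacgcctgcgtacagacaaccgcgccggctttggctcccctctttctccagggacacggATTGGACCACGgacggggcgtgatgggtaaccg
Sec24d: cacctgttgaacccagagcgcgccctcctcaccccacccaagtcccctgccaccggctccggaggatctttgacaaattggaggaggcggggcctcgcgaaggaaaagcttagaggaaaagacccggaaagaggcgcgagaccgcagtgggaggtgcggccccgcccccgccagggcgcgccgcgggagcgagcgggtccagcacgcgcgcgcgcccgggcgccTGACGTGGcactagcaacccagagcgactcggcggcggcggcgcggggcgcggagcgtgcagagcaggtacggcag
Kdelr3: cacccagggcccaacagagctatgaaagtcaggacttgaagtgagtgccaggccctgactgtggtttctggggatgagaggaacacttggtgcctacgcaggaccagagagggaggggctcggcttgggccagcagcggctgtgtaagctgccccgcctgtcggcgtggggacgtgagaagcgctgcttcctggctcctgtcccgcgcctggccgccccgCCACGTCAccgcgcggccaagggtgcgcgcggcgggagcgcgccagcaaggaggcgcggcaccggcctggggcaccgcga
ERSE was searched as CCAAT and CCACG with 9 bases of any kind between them, ERSE-II as ATTGG and CCACG with 1 base between them, UPRE as TGACGTGG, and CCACGT, which UPRE holds on its other strand, each on both strands. Both ERSE forms end in CCACG, which CCACGT holds as well, so the searches overlap. A promoter was given for 18786 genes with a value, among them 621 of the lower and 280 of the higher genes. ERSE was found in 6 promoters of lower genes (0.966%), 1 of higher genes (0.357%) and 29 of all (0.154%). ERSE-II was in 4 of lower (0.644%), 0 of higher and 10 of all promoters (0.0532%). UPRE was in 27 of lower (4.35%), 3 of higher (1.07%) and 157 of all (0.836%). CCACGT was in 132 of lower (21.3%), 19 of higher (6.79%) and 1972 of all promoters (10.5%). Of 40 promoters of the unfolded protein response list 10 (25%) hold an ERSE and 0 hold a UPRE. Among these 10 are 6 of fallen genes, Creld2, Derl3, Dnajc3, Hsp90b1, Hspa5 and Pdia6, and the rest were not called lower. They are the same 6 promoters of lower genes counted above, so the 2 counts are not separate. Of the whole list 27 of 45 genes fell. Of 30 promoters of ER to Golgi transport genes 17 (56.7%) hold CCACGT, and of 18 promoters of glycolysis and glucose transport genes 6 (33.3%) do. A match describes these windows only and is not a measured binding site.

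Genes that bring proteins into the ER fell together. Of 24 genes of the translocon, its associated complex, the signal peptidase and the signal recognition particle 18 fell. None rose, 19 lay wholly below WT and the median difference was -1.72. The shares of all genes were 3.3% called lower and 7.65% wholly below WT. The list's mean was 11.03, 11.02 and 10.97 in ELL2 cko arrays and 13.26, 11.89, 12.93 and 12.23 in WT, so WT replicates 2 and 4 lay nearer the knockout than replicates 1 and 3 did. Tram2, a translocating chain protein, had 11.36, 10.96 and 10.77 against 14.97, 13.08, 14.88 and 13.39, below WT at all 13 exon regions (-3.05 ± 0.38, adjusted p = 4.47e-04). Spcs3 of the signal peptidase had 13.66, 12.98 and 12.86 against 14.49 to 16.48 (-2.40 ± 0.39), and Srprb of the receptor of the signal recognition particle had 9.29, 8.92 and 9.02 against 10.86 to 12.38 (-2.40 ± 0.31). The channel subunits Sec61a1 and Sec61b fell by 1.92 and 1.94. The less used paralog Sec61a2 (-0.33) and Srp14 (0.07) were not called. The count of 18 was 6 with the 7 LPS arrays alone and 12 without ELL2 cko replicate 2 or 3 or WT replicate 3, and the median was -1.66 with replicate 1 alone.

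Of 27 genes of the oligosaccharyltransferase and of the enzymes that build its sugar donor 14 fell and none rose. Wholly below WT lay 17, and the median was -1.28. The shares of all genes were 3.3% called lower and 7.65% wholly below WT. The list's mean was 9.68 to 9.81 in ELL2 cko and 11.52, 10.41, 11.45 and 10.55 in WT. Here too WT replicates 2 and 4 lay nearer the knockout than replicates 1 and 3 did. Krtcap2, a subunit of the transferase, had 10.58, 10.60 and 10.46 in ELL2 cko against 13.56, 12.60, 13.75 and 12.38 in WT (-2.53 ± 0.43, adjusted p = 0.0035). Alg5, which makes dolichol phosphate glucose, had 9.16, 8.65 and 8.60 against 10.39 to 12.29 (-2.52 ± 0.35). The catalytic subunit Stt3a had 13.67, 12.44 and 12.43 against 16.49, 14.20, 15.72 and 14.94 (-2.49 ± 0.57, adjusted p = 0.0222). The groups of Stt3a lay close at knockout replicate 1 and WT replicate 2, and its call was lost without ELL2 cko replicate 2 or 3 or WT replicate 1 or 3 (adjusted p up to 0.118). Its paralog Stt3b differed by -0.67 and the accessory subunit Tusc3 by 0.67 ± 0.29, neither of them called. The count of 14 was 2 with the 7 LPS arrays alone, 4 without ELL2 cko replicate 3, 7 without ELL2 cko replicate 2 and 7 without WT replicate 3, with medians between -1.52 and -1.07 for any 1 array left out.

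Transport between ER and Golgi followed the same direction, with 20 of 33 genes called lower, none higher, 23 wholly below WT and a median of -1.29. The shares of all genes were 3.3% called lower and 7.65% wholly below WT. The list's mean was 9.81 to 9.82 in ELL2 cko and 11.83, 10.54, 11.61 and 10.73 in WT, where replicates 2 and 4 again lay nearer the knockout. Kdelr2 and Kdelr3 encode receptors that return ER residents from the Golgi. Kdelr2 had 10.99, 10.52 and 10.84 in ELL2 cko against 14.32, 12.89, 14.99 and 13.41 in WT (-3.12 ± 0.46, adjusted p = 0.00132). Kdelr3 lay near the median gene in ELL2 cko (4.84, 4.72 and 4.26) but not in WT (8.27, 6.29, 8.54 and 6.53) (-2.80 ± 0.44). Sec24d, a cargo adaptor of the COPII coat whose promoter is shown above, had 7.88, 8.26 and 8.19 against 12.58, 9.83, 11.68 and 9.86 (-2.87 ± 0.51). Of its paralogs Sec24a fell by 2.39, while Sec24b (0.36 ± 0.22) and Sec24c (-0.90) were not called. Tmed6, a cargo receptor outside the list, had the widest WT range of the large falls, 11.43, 6.74, 8.53 and 8.11, against 5.53, 4.87 and 4.74 in ELL2 cko (-3.65 ± 0.71, adjusted p = 0.00882, lost without ELL2 cko replicate 2 or 3, adjusted p up to 0.053). The count of 20 was 5 with the 7 LPS arrays alone, 8 without ELL2 cko replicate 2, 9 without ELL2 cko replicate 3, 11 without WT replicate 1 and 8 without WT replicate 3, with medians between -1.51 and -1.09 for any 1 array left out.

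**Figure D3:**
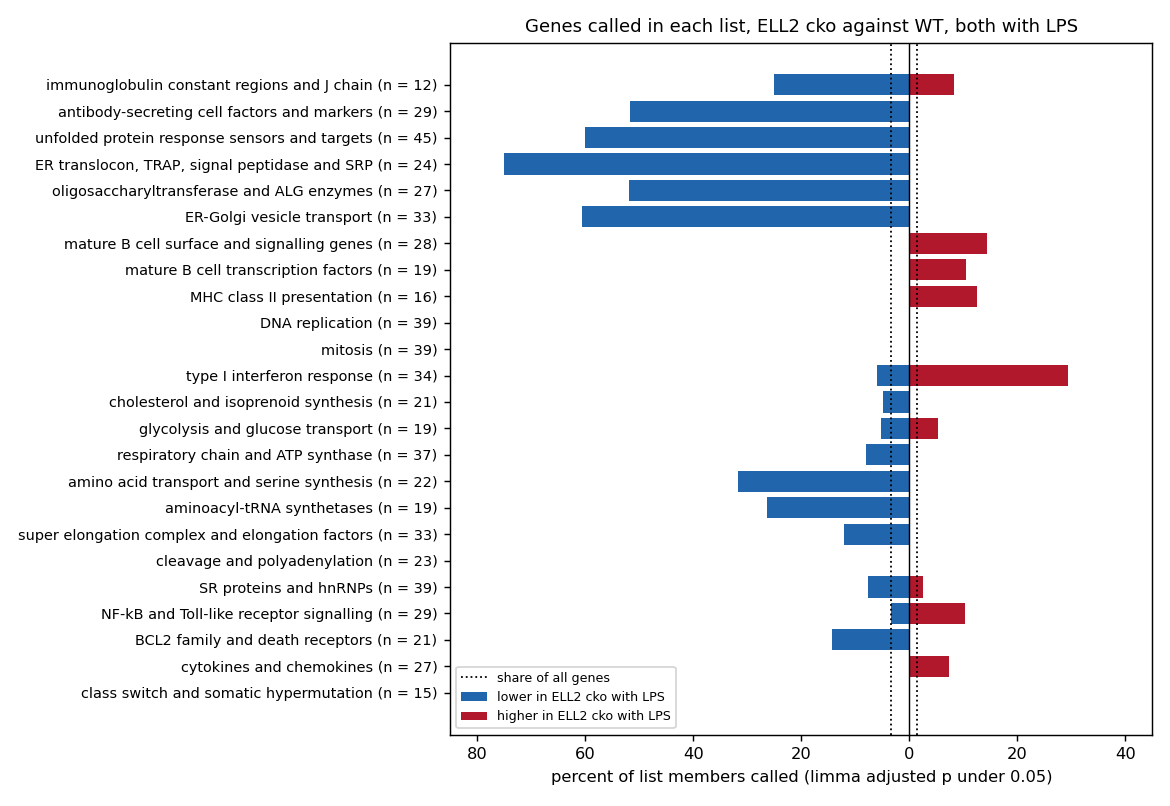
Percent of the members of each gene list (one bar a list, n members measured) called by limma, with blue bars to the left for lower and red bars to the right for higher in ELL2 cko with LPS and dotted lines at the shares of all genes, 3.3% and 1.36%. Blue bars are longest for the translocon list, with 18 of 24 genes, and the other lists of secretion and the ER, and the longest red bar is that of the interferon list, with 10 of 34.

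Several genes with wide gaps below WT serve signalling and other tasks. Rgcc, a regulator of the cell cycle that responds to complement, had 5.91, 5.14 and 5.83 in ELL2 cko and 9.58, 8.77, 9.94 and 9.61 in WT, the widest gap below WT with predicted genes, pseudogenes and receptor segments left out (-3.85 ± 0.41, adjusted p = 1.75e-04). Its WT mean without LPS was 4.94, so the cultured knockout cells stood close to the level before culture. Pik3cg, the catalytic subunit of phosphoinositide 3-kinase gamma, had 12.20, 11.11 and 11.58 against 14.63, 14.32, 15.21 and 14.25, below WT at all 22 exon regions (-2.97 ± 0.29, adjusted p = 1.11e-04). Creb3l2, a membrane-bound transcription factor of secretory cells, had 10.45, 9.82 and 10.44 against 12.34 to 14.61 (-3.26 ± 0.51). Qpctl, a glutaminyl cyclase of the Golgi, had 8.78 to 9.21 against 11.30 to 13.69 (-3.65 ± 0.45), and Hid1, needed for secretory granules, 7.45 to 8.47 against 10.36 to 12.88 (-3.60 ± 0.55). All 5 genes kept their calls with any 1 array left out. Ctla4, an inhibitory receptor better known from T cells, had 9.16, 7.50 and 8.40 against 11.09 to 11.87 (-3.04 ± 0.56, adjusted p = 0.00619), with the 2 arrays with T cell markers below replicate 1. Its call was lost without ELL2 cko replicate 2 (adjusted p = 0.0502), and its junction rows differed by only -0.59. For D17H6S56E-5 exon regions gave -3.18 and junction rows -0.50, so its 2 kinds of rows disagree.

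MicroRNA genes were read by rows on their precursors, which also pick up RNA of a host gene, and the mature RNAs were not measured. Of 654 microRNA genes 9 fell (1.38%) and 4 rose (0.612%). Those below WT in every array numbered 42, and those above 27. Over all genes 3.3% fell and 1.36% rose, and 7.65% lay below and 6.23% above WT in every array. The mature products of the called microRNA gene with the most negative difference, of the largest rise and of Mir155, the second largest rise, which was chosen after its values were seen, have different seeds (bases 2 to 8, in capitals, from RefSeq on GRCm38.p6).
mmu-miR-148a-3p: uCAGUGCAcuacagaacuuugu
mmu-miR-342-3p: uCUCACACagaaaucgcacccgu
mmu-miR-155-5p: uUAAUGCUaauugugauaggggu
Mir148a (chr6:51269829-51269850, minus strand, for the mature product), whose product is abundant in plasma cells, had 4.83, 3.47 and 3.69 in ELL2 cko and 8.76, 6.97, 8.16 and 6.70 in WT (-3.65 ± 0.42, adjusted p = 2.75e-04). All knockout arrays lay below the median gene, replicates 2 and 3 near the background control rows, whose array medians were 3.02 to 3.43, so the size of the difference is not well measured. The WT mean without LPS was 3.22. Mir342 (chr12:108658680-108658702, plus strand) had 10.37, 11.51 and 11.79 against 6.70, 9.54, 6.05 and 8.25 (3.59 ± 0.67, adjusted p = 0.00693). It lies within Evl, a regulator of actin filaments that rose as well (11.78, 11.85 and 12.13 against 7.10, 10.48, 7.22 and 9.71), so the 2 rows are not separate evidence. The rise of Evl (3.30 ± 0.64, adjusted p = 0.00862) was lost without ELL2 cko replicate 3 (adjusted p = 0.0506). Mir155 (chr16:84714143-84714165, plus strand), whose product limits several factors of activated B cells, had 9.82, 11.61 and 10.68 against 7.90, 8.93, 7.46 and 8.57 (2.49 ± 0.43, adjusted p = 0.0039). Its groups did not overlap, and it differed by 1.61 with replicate 1 alone.

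Metabolic lists moved less. Of 22 genes of amino acid transport and serine synthesis 7 fell and none rose (median -0.55), and 4 fell without ELL2 cko replicate 2 or WT replicate 3. Pycr1, the last enzyme of proline synthesis in mitochondria, had 8.30, 8.41 and 9.11 in ELL2 cko against 11.22, 10.66, 11.83 and 10.51 in WT (-2.45 ± 0.27, adjusted p = 2.25e-04) and was called with replicate 1 alone (-2.76, adjusted p = 0.0314). Slc3a2 and Slc7a5, the 2 chains of the large neutral amino acid transporter, fell by 1.73 and 1.48, and Slc7a3, a carrier of cationic amino acids, by 2.09. Serine synthesis enzymes Phgdh (-0.95), Psat1 (-0.02) and Psph (-0.14) were not called. Of 19 aminoacyl-tRNA synthetases 5 fell and 11 lay wholly below WT (median -0.71), with Yars, of tyrosine, at 8.05, 8.38 and 8.41 against 8.98 to 10.64 (-1.56 ± 0.32). The count of 5 was 3 without ELL2 cko replicate 1, 1 without ELL2 cko replicate 2 or WT replicate 3 and 2 without ELL2 cko replicate 3 or WT replicate 1. Of 37 respiratory chain and ATP synthase genes 3 fell (8.1%), 11 lay wholly below WT and the median was -0.28, while 6 fell without WT replicate 2. Ndufa1 of complex I had 14.57 to 15.30 against 16.10 to 17.39 (-1.92 ± 0.29), Uqcrq of complex III 11.33 to 11.66 against 12.49 to 14.38 (-1.90 ± 0.34), and Sdhb of complex II fell by 1.38. Of 19 glycolysis genes Hk2 fell by 1.10 (5.3% of the list) and Pfkfb3 rose by 1.58 (5.3%). The groups of Pfkfb3 overlapped, with 8.99 in ELL2 cko replicate 1 and 9.03 in WT replicate 2. Its junction rows differed by only 0.21 (limma adjusted p = 0.849). Of 21 genes of cholesterol and isoprenoid synthesis Ebp alone fell (-1.29, 4.8% of the list). Over all genes 3.3% fell, 1.36% rose and 7.65% lay wholly below WT, so 1 call in such a list is near the share of all genes. The calls of Sdhb, Ebp and Pfkfb3 were lost without ELL2 cko replicate 2 or 3 or WT replicate 1 or 3 (adjusted p up to 0.163).

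Genes higher in ELL2 cko included several of the mature B cell and of innate defence. Nid1, a protein of basement membranes, had the steadiest rise, with 10.79, 10.87 and 10.81 in ELL2 cko and 7.47, 8.86, 8.09 and 8.58 in WT. All 23 of its exon regions lay above WT in every array (2.57 ± 0.32, adjusted p = 4.32e-04). Saa3, an acute phase protein, differed most, with 11.19, 13.33 and 13.32 against 5.99, 8.88, 5.30 and 9.53 (5.19 ± 0.85, adjusted p = 0.00299). Knockout replicates 2 and 3 of Saa3 stood above replicate 1, which still lay above WT (3.76 with replicate 1 alone). Mpeg1, a pore-forming protein of phagocytes and B cells, had 10.68, 12.27 and 12.23 against 5.81, 9.13, 6.06 and 8.78 (4.28 ± 0.75). Clec2i, a lectin-like ligand of NK receptors, had 10.83, 11.78 and 11.85 against 7.73 to 9.69 (3.01 ± 0.40). Cr2, the complement receptor CD21 of mature B cells, had 12.79, 13.62 and 13.48 against 10.61 to 11.82, and 17.12 on average in WT cells without LPS (2.04 ± 0.30, adjusted p = 0.00142). Arap2, which acts on small GTPases, rose by 1.97 and Gbp2b, an interferon-induced GTPase, by 2.22. These 7 genes kept their calls with any 1 array left out, as did Fam111a (3.21). Junction rows however differed by only 0.30 for Fam111a, 1.63 for Mpeg1 and 1.49 for Clec2i, none of them called (limma adjusted p = 0.796, 0.0859 and 0.0656). Those of Nid1, Saa3, Cr2, Arap2 and Gbp2b were called in the same direction.

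In other genes with a wide gap above WT, WT replicates 1 and 3 lay far below replicates 2 and 4. Fcrl5, an Fc receptor-like protein of marginal zone B cells in mice, had 14.37, 15.09 and 15.37 in ELL2 cko and 8.62, 13.28, 9.84 and 11.24 in WT (4.2 ± 0.85, adjusted p = 0.0108). Notch2, the receptor that marginal zone B cells need, had 12.77, 12.76 and 12.94 against 8.90, 11.64, 9.44 and 11.26 (2.51 ± 0.51, adjusted p = 0.0109). Lrrk2, a large kinase, had 12.62, 12.45 and 12.67 against 7.47, 11.36, 8.11 and 9.83 (3.39 ± 0.70). The calls of these 3 genes were lost without ELL2 cko replicate 2 or 3 (adjusted p up to 0.063). Cd86, a costimulatory ligand for T cells, had 11.24, 11.62 and 11.86 against 6.60, 10.18, 7.52 and 10.13 (2.97 ± 0.69, adjusted p = 0.0247). Plbd1, a phospholipase-like protein, had 10.67 to 10.94 against 5.57 to 9.33 (3.29 ± 0.75, adjusted p = 0.0224). The calls of Cd86 and Plbd1 were lost without ELL2 cko replicate 2 or 3 or WT replicate 3, and that of Plbd1 also without WT replicate 1 (adjusted p up to 0.112).

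**Figure D4:**
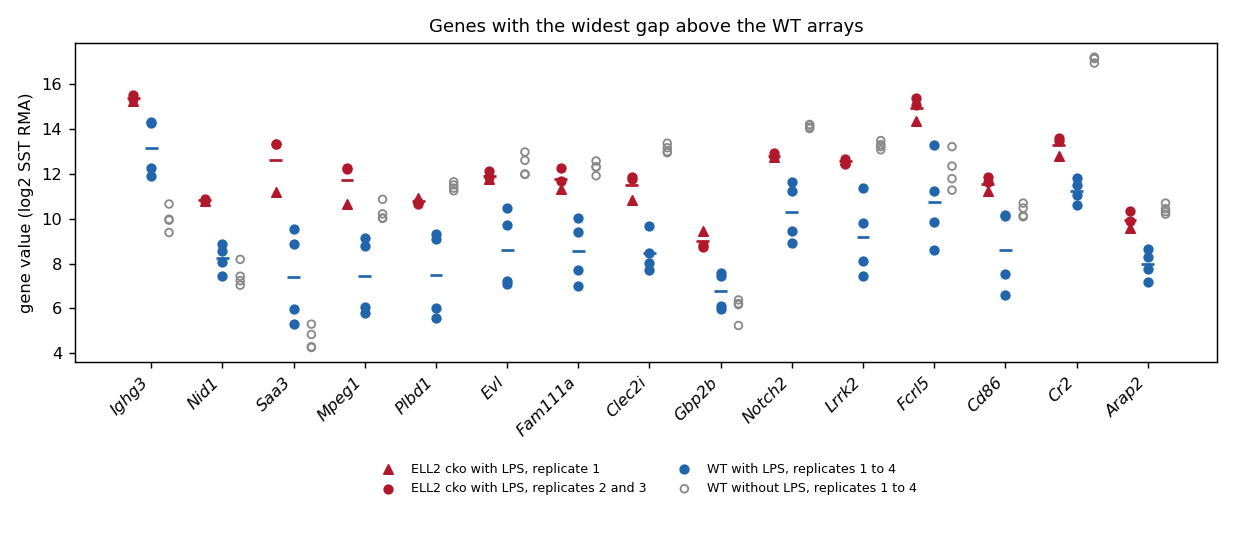
Log2 level by array of the 15 called genes with the widest gap above the WT arrays (with the same genes left out), drawn as for the genes below them: ELL2 cko with LPS in red (triangle, replicate 1; circles, replicates 2 and 3), WT with LPS in blue, WT without LPS as open grey circles, bars at the means. In Nid1 the knockout arrays lie between 10.79 and 10.87 and the WT arrays between 7.47 and 8.86, while in Lrrk2 the WT arrays spread from 7.47 to 11.36.

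The mature B cell lists had positive median differences and few calls. Of 28 surface and signalling genes 4 rose (Cr2, Fcrl1, Sorl1 and Syk), none fell, 11 lay wholly above WT and the median difference was 1.19, against 1.36% called higher and 6.23% above over all genes. The count of 4 was 1 without ELL2 cko replicate 2 or 3, 2 without WT replicate 1 or 3, 9 without WT replicate 2 and 8 without WT replicate 4. Cd22, an inhibitory coreceptor of the B cell receptor, had 15.53, 15.49 and 15.49 in ELL2 cko and 8.11, 15.08, 10.36 and 15.07 in WT. WT replicates 2 and 4 of Cd22 lay within 1 log2 unit of the knockout and replicates 1 and 3 far below, and the difference of 3.35 ± 1.32 was not called (adjusted p = 0.195). Sorl1, a sorting receptor, had 9.84, 11.56 and 11.57 against 5.60, 9.69, 7.06 and 9.35 (3.07 ± 0.76, adjusted p = 0.0331), lost without ELL2 cko replicate 2 or 3 or WT replicate 1 or 3 (adjusted p up to 0.159). Ccr6, a chemokine receptor, lay wholly above WT at 12.71 to 13.94 against 8.62 to 12.14 (2.87 ± 0.78, adjusted p = 0.051). Cd79a, a chain of the B cell receptor, differed by 0.02. Cr1l, a complement regulator, was the 1 member wholly below WT (-0.62 ± 0.23, adjusted p = 0.161).

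Of 19 mature B cell transcription factors Irf8 and Ets1 rose (10.5%), 7 lay wholly above WT and the median was 0.79. For this list and the next, the shares of all genes were 1.36% called higher and 6.23% wholly above WT. Of the 19 factors 1 was called without ELL2 cko replicate 1 and none without ELL2 cko replicate 2 or 3 or WT replicate 1 or 3. The count was 10 without WT replicate 2 and 3 without WT replicate 4. Irf8, which acts with Spi1 in B and myeloid cells, had 12.39, 13.39 and 13.34 against 9.71, 12.07, 10.29 and 11.98 in WT (2.03 ± 0.54, adjusted p = 0.0463), lost without ELL2 cko replicate 2 or 3 or WT replicate 1 or 3 (adjusted p up to 0.195). Spib, an Ets factor that opposes plasma cell formation, had 13.27, 14.06 and 14.12 against 6.69, 13.10, 9.5 and 12.06 (3.48 ± 1.04, adjusted p = 0.0765). Ebf1, a founder of B cell identity, had 13.91 to 13.94 against 10.85 to 13.70 (1.53 ± 0.54, adjusted p = 0.142). Tcf3 was the 1 member wholly below WT (-0.63 ± 0.30, adjusted p = 0.297). Of 16 genes of MHC class II presentation H2-Eb1 and Ifi30 rose, none fell and 6 lay wholly above WT (median 1.67). None was called without ELL2 cko replicate 2 or 3 or WT replicate 1 or 3, 7 without WT replicate 2 and 8 without WT replicate 4. Ifi30, a thiol reductase of antigen processing, had 13.64, 14.40 and 14.66 against 9.96, 12.82, 10.36 and 11.42 (3.10 ± 0.69, adjusted p = 0.0196), lost without ELL2 cko replicate 2 or 3 or WT replicate 1 or 3 (adjusted p up to 0.1). Ciita, the class II transactivator that Blimp-1 represses, had 11.64, 11.88 and 11.62 against 5.92, 10.88, 7.46 and 10.75 (2.96 ± 0.94, adjusted p = 0.0988). With replicate 1 alone the medians of the 3 lists were 1.24, 0.99 and 1.37.

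**Figure D5:**
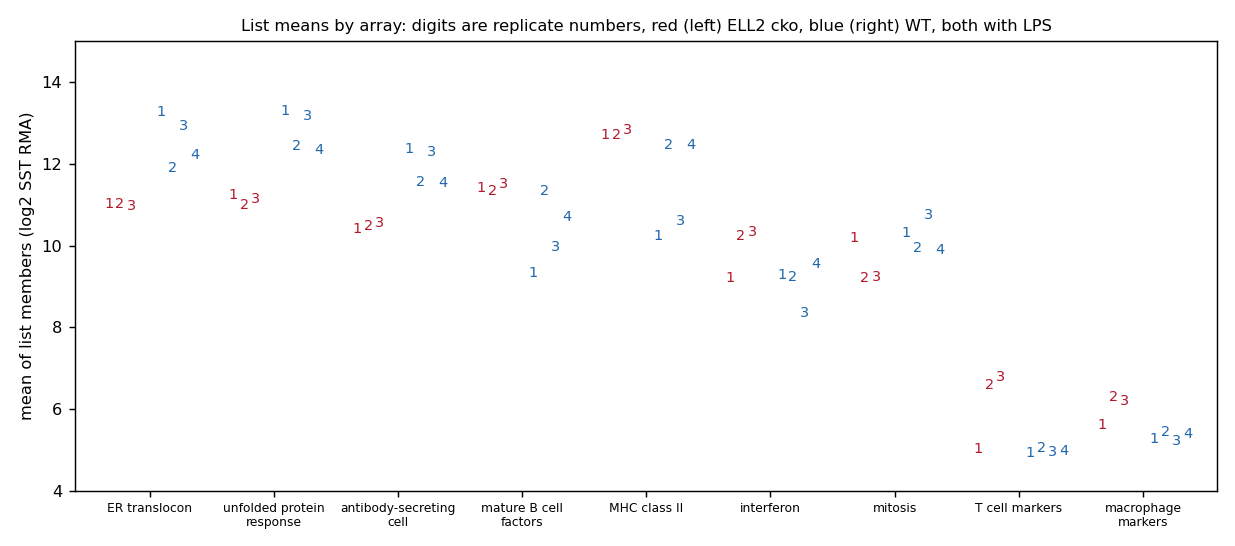
Mean log2 level of gene lists in each array with LPS, where digits are replicate numbers, red digits on the left of each list ELL2 cko and blue digits on the right WT. The 3 red digits lie together below the blue ones for the translocon, unfolded protein response and antibody-secreting lists, while for interferon, mitosis, T cell and macrophage genes ELL2 cko replicate 1 stands apart from replicates 2 and 3.

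Interferon response genes were higher in the 2 knockout arrays with T cell and macrophage markers than in replicate 1. Of 34 members 10 rose (29.4%), 2 fell (5.9%) and 8 lay wholly above WT, with a median of 0.94. Of all genes 1.36% rose, 3.3% fell and 6.23% lay wholly above WT, so the 2 falls are near the share of all genes. The list's mean was 9.20, 10.23 and 10.33 in ELL2 cko and 9.27, 9.23, 8.36 and 9.55 in WT. Oas2, a synthetase of the antiviral RNase L pathway, had 8.29, 10.67 and 10.19 against 6.58, 8.23, 5.92 and 7.73 (2.60 ± 0.61, adjusted p = 0.0258). Oas1a of the same family rose by 2.37 ± 0.54 and Dhx58, which regulates RNA sensors, by 2.19 ± 0.52. Without ELL2 cko replicate 2 or 3 none of the list was called higher by limma, and without WT replicate 1 or 3 there was 1. The count was 17 without ELL2 cko replicate 1. With replicate 1 alone the median was 0.09. Outside the list Trim30c (8.74, 11.37 and 11.77 against 5.85, 8.13, 5.89 and 6.70) and Ifi203 (10.19, 11.99 and 12.12 against 5.88, 9.35, 6.52 and 8.98) rose in the same pattern, by 3.98 ± 0.72 and 3.75 ± 0.74, and the call of Ifi203 was lost without ELL2 cko replicate 2 or 3 (adjusted p up to 0.0644). The 2 falls were Isg20 and Bst2. Isg20, an exonuclease, had 10.25, 10.19 and 9.59 against 12.35, 11.39, 11.41 and 11.39 (-1.62 ± 0.23, adjusted p = 0.00111), and Bst2, also known as tetherin, had 13.00 to 13.21 against 13.98 to 15.45 (-1.58 ± 0.33, adjusted p = 0.0134), lost without ELL2 cko replicate 2 or 3 or WT replicate 3 (adjusted p up to 0.0716).

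Of 29 genes of NF-kB and Toll-like receptor signalling Tlr1, Cd83 and Nfkb1 rose (10.3%), Irak1 fell (3.4%) and the median was 0.43. Over all genes 1.36% rose and 3.3% fell. The 3 rises were 0 without ELL2 cko replicate 2 or 3 or WT replicate 3, 1 without WT replicate 1 and 9 without WT replicate 2. The LPS receptor genes Tlr4 (0.20), Cd14 (-0.13) and Ly96 (-0.99) were not called. Tlr1 had 12.30, 12.86 and 13.42 against 6.88, 11.52, 8.74 and 11.30 (3.25 ± 0.85, adjusted p = 0.0432), a call lost without any 1 ELL2 cko array or WT replicate 1 or 3 (adjusted p up to 0.174). Of 27 cytokines and chemokines Csf1 and Cxcl16 rose (7.4%). Csf1 alone was called without ELL2 cko replicate 2 or 3 or WT replicate 1 or 3, and 4 were without ELL2 cko replicate 1 or WT replicate 4. Csf1, the growth factor of macrophages, had 6.98, 7.72 and 7.74 against 4.80 to 6.65 (2.06 ± 0.35, adjusted p = 0.00391), called with any 1 array left out. Its junction rows differed by 0.99 and were not called (limma adjusted p = 0.167). Il10, an inhibitory cytokine of activated B cells, overlapped, with 10.56, 8.50 and 8.08 against 9.13, 12.22, 11.60 and 9.01. Of 21 genes of the BCL2 family and death receptors the survival genes Mcl1 (-1.84 ± 0.48) and Bcl2l1 (-1.03) and the death gene Bmf (-1.0) fell and 4 lay wholly above WT, among them Bcl2 (11.19 to 11.39 against 8.09 to 11.11) and Fas (8.07 to 8.39 against 5.97 to 7.96), which were not called. Mcl1, which plasma cells depend on, was called in 1 of 7 fits with an array left out (adjusted p up to 0.205). The 3 falls of the list (14.3%) numbered 1 without ELL2 cko replicate 2 or 3 or WT replicate 1 or 3.

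Division and splicing genes gave few calls. None of 39 DNA replication genes was called by limma (9 lower and 2 higher at an unadjusted p under 0.05), with a median of -0.19, and none of 39 mitosis genes (11 lower and 0 higher unadjusted). The median of mitosis genes was -0.73, and their mean was 10.19, 9.21 and 9.24 in ELL2 cko and 9.88 to 10.76 in WT. Replicate 1 was thus within the WT range and replicates 2 and 3 below it, and with replicate 1 alone the median was -0.04. Without replicate 1, 7 mitosis genes were called lower, 28 of 39 lay wholly below WT and the median was -1.15. In that setting 1171 of all 31366 genes were called lower and 4344 lay wholly below WT, as fewer arrays make the range rule easier to meet. None of 15 genes of class switch and somatic hypermutation was called (0 lower and 1 higher unadjusted). Of 39 SR proteins, hnRNPs and other splicing regulators Mbnl2, Srsf9 and Clk3 fell (7.7%) and Srsf10 rose (2.6%), with a median of 0.00. Over all genes 3.3% fell and 1.36% rose. Mbnl2 had 11.81, 10.96 and 11.32 against 14.42, 12.99, 14.14 and 12.86 (-2.24 ± 0.36, adjusted p = 0.00273) and kept its call with any 1 array left out, while Srsf9 (-1.36 ± 0.35) and Srsf10 (0.99 ± 0.26) kept theirs in 2 of 7 such fits. Junction rows of Mbnl2 differed by -1.51 and were not called (limma adjusted p = 0.195). Of the 20 T cell markers Cd2, also a gene of B cells, was the 1 called (9.95, 10.70 and 10.21 against 6.60, 9.45, 7.25 and 9.09). For markers of other cells the spread shared by all 15 arrays was wide (SE 1.99 for Lyz2), so a missing call says little, and with the 7 LPS arrays alone 2 of 19 monocyte and macrophage markers rose.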

How the data were processed

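RNA of splenic B cells was hybridised to 15 mouse transcriptome arrays. Per the labels and the submitters' processing notes, the deposited log2 values were made by the authors with SST RMA in Affymetrix Expression Console, whose version and annotation are not given in the sources used here; SST RMA transforms the signal, so differences are those of this scale. The base of the log was inferred from the values. The table holds 725678 rows. Gene values are medians of the exon region rows annotated to exactly 1 gene symbol (338822 rows, 31366 genes, 7644 of them with 1 row), after 1465 symbols were updated through synonyms. Tests were limma 3.58.1 (R 4.3.3) with lmFit and eBayes on 4 group means over all 15 arrays and Benjamini-Hochberg adjustment over all genes; tables were made with Python 3.11.15, pandas 2.3.3 and numpy 2.4.6 and figures with matplotlib 3.10.9. The fit was tested on simulated data. The number of arrays limits the precision.

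Genes, lists and tests were chosen with earlier results of these data known. Always named were Ell2, Prdm1, Irf4, Xbp1, Pax5, Tnfrsf17, Atf6 and immunoglobulin constant genes. Added were called genes outside the WT range (higher group mean above the median gene; predicted genes, pseudogenes and receptor segments left out), the 15 with the widest gap below and the 15 above and the 6 with the largest difference each way. From each list came the 3 members outside the WT range with the largest difference and 1 in the other direction, and of markers of other cells up to 4 by level. Other genes were named after their values were seen. Same-numbered ELL2 cko and WT arrays did not deviate together (r = -0.156, -0.139 and -0.024), so numbers were not taken as pairs. Alternatives changed the arrays fitted, filters, normalization, array weights, the summary of rows and the test.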

Additional observations from a re-analysis of the deposited data

Results flagged for a closer look

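In 6 genes 1 WT array stood apart from the other 3, with its gap to the nearest array as a share of the range above the critical value for 4 samples: Atf6 (0.963), Ighe (0.896), Isg20 (0.973), Slc3a2 (0.833), Lars (0.906) and Cd68 (0.937). Every gene named by the rules was searched, 81 called ones and the uncalled ones. Chance gives such a gap in about 1 of 20 groups, so these 6 were not shown to exceed chance.

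The genotype difference with LPS differed from that without LPS by limma's interaction term in 428 of 31366 genes, 400 of them among the 1462 called with LPS. The interaction contains the difference with LPS itself. Genes called or chosen for that difference therefore tend to have a large interaction, and the overlap is not separate evidence. Unstimulated ELL2 cko replicates 1 and 2 also had high T cell markers (means 10.55 and 10.20). Their neutrophil (10.18 and 9.74), NK cell (8.51 and 8.46) and macrophage markers (8.71 and 8.69) were high as well. In unstimulated ELL2 cko replicates 3 and 4 these means were 4.31 and 4.23, 4.60 and 4.67, and 5.48 and 6.01. B cell markers had means of 13.41 and 13.30 in replicates 1 and 2, against 15.03 and 14.95 in replicates 3 and 4. The part of replicates 1 and 2 in the interaction values and in the spread was not tested. Only described genes with an interaction adjusted p under 0.05 are listed next. Among them, the interaction (log2, with LPS minus without) of secretion and ER genes was -2.08 for Prdm1, -2.62 for Xbp1, -4.96 for Fkbp11, -3.44 for Igk, -3.55 for Chac1, -3.29 for Edem1, -3.43 for Txndc5, -3.59 for Derl3, -2.27 for Cd93, -2.89 for Tram2, -2.28 for Spcs3 and -2.12 for Srprb. It was -2.63 for Krtcap2, -2.62 for Alg5, -3.30 for Sec24d, -3.19 for Kdelr2, -2.66 for Kdelr3 and -3.66 for Creb3l2. Of other lower genes it was -4.30 for Rgcc, -3.62 for Qpctl, -2.47 for Pik3cg, -4.43 for Ctla4, -4.21 for Hid1, -2.87 for D17H6S56E-5, -3.54 for Mir148a, -1.88 for Isg20, -1.15 for Hk2, -2.40 for Ndufa1, -2.54 for Uqcrq, -2.38 for Pycr1, -2.11 for Slc7a3, -2.36 for Slc3a2, -2.27 for Mbnl2 and -3.18 for Bst2. Among higher genes it was 2.13 for Nid1, 3.54 for Fam111a, 3.49 for Clec2i, 3.10 for Notch2, 2.75 for Cr2 and 2.22 for Arap2. Many described genes did not pass this limma test. Among them were Ell2 (-1.61, adjusted p = 0.0681), Irf4 (-1.24, 0.225), Edem3 (-2.82, 0.0669), Stt3a (-2.06, 0.252), Jchain (-3.35, 0.265) and Saa3 (4.88, 0.0574).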

How the results depend on the processing

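With any 1 array left out, 556 to 2162 genes were called, 484 to 1417 lower and 63 to 830 higher. Calls of listed genes, 149 with all arrays, numbered 68 to 203. Genes wholly below WT numbered 2745 to 4344 and wholly above 2419 to 4701, fewer arrays making the rule easier to meet. With the 7 LPS arrays alone, which leave fewer arrays to estimate the spread, 444 genes were called (399 lower, 45 higher; 50 listed). Without the 2 ELL2 cko arrays with T cell markers 20 were called, 20 lower and 0 higher, 4 of them listed, with 6993 genes below and 6817 above WT. Higher genes numbered 746 after quantile normalization, 762 with array weights and 651 with means of exon regions; the cause was not tested. Junction rows, which cover fewer genes, gave 766 calls (567 lower, 199 higher), 1598 genes below and 1092 above WT, and Ighm, uncalled at -0.04 by exon regions near the top of the scale, differed by 0.70. With the replicate number as a block 1400 genes were called (957 lower, 443 higher; 145 listed). Levels near the median gene and near 19.93 limit what can be measured.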
